A study of Mus musculus with 9 samples.

Results

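Fetal mouse ovaries kept in culture with bone morphogenetic protein 2 (BMP2) were compared with ovaries kept in culture with vehicle. The comparison took in 6 of the 9 libraries of the series, chosen by the prefixes of their titles: 3 libraries of ovaries given recombinant human BMP2 at 50 ng/ml and 3 of vehicle ovaries, with no outcome used in the choice. The other 3 libraries were of ovaries given estradiol (E2), and they enter below as a reference level for genes named here. All ovaries were from wild-type CD1 mice, were collected on day 16 of gestation and stayed for 24 hours on culture inserts in phenol red-free medium with a modified insulin, transferrin, selenium and linoleic acid supplement. Poly(A) RNA of the whole organ was sequenced, so germ cells, somatic cells and blood cells contributed to every value. Nothing in the labels tells if a group's libraries stem from separate cultures, animals or pools, and p-values therefore describe the spread among these libraries, which may be technical.

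BMP2 is a secreted ligand of the TGF-beta superfamily. It binds type I and type II serine/threonine kinase receptors at the cell surface, and the activated receptors phosphorylate SMAD1, SMAD5 and SMAD8 (SMAD9), which enter the nucleus with SMAD4 and bind GC-rich elements. In the fetal mouse ovary BMP2 is made by somatic cells, at a time when germ cells are passing through meiotic prophase and pregranulosa cells are settling around them.

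Counts assigned to genes came to between 33360565 and 34320077 per BMP2 library and between 30860223 and 34253992 per vehicle library. Levels below are TMM-normalised CPM (read counts scaled to library size), and fold changes and adjusted p-values are from edgeR's quasi-likelihood test with Benjamini-Hochberg adjustment over all 16360 genes tested. A gene is called where its adjusted p is under 0.05, and only called genes are said to have risen or fallen. The tissue carried the RNA of its 2 defining lineages: the germ cell helicase Ddx4 averaged 176 CPM and the pregranulosa transcription factor Foxl2 averaged 56.5 CPM in vehicle ovaries.

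After 24 hours of BMP2, 2239 genes were called (13.7% of those tested), of which 1119 were higher (6.84%) and 1120 were lower (6.85%). Libraries of the groups did not overlap for 4584 genes (28.0%). Most of these differences were small. The median fold of the called genes was 1.1, and 1772 of them (79.1%) changed by less than 1.2-fold. When the test asked for a change beyond 1.2-fold, 43 genes were higher and 27 were lower, so most of the calls below rest on the small spread between the libraries and not on large shifts. Changes of more than 1.5-fold were reached by 79 higher and 69 lower genes, and changes of more than 2-fold by 31 and 26. None of the genes at 100 CPM or more changed by more than 1.5-fold, whereas 50 higher and 46 lower genes between 1 and 10 CPM did. Calls were more frequent at higher levels up to 1000 CPM. From 1 to 10 CPM 4.1% of genes were higher and 3.62% lower, and from 100 to 1000 CPM 14.15% and 13.81%. A list count near the shares at its level is no result about the list.

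**Figure D1:**
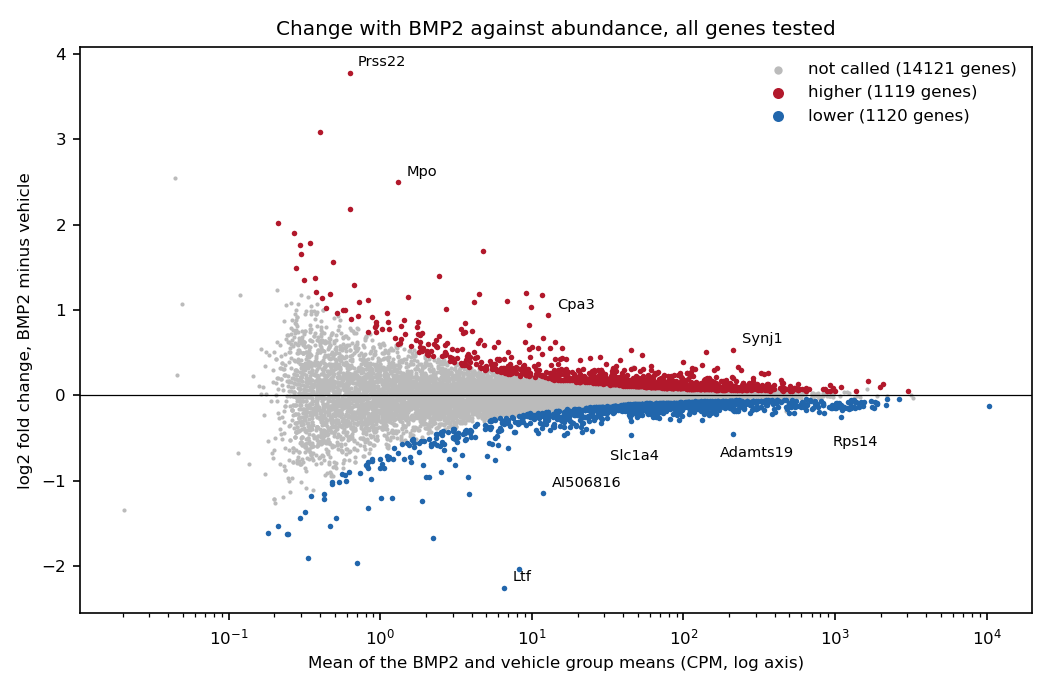
Log2 fold change of BMP2 over vehicle (vertical axis) against mean level in CPM on a log axis (horizontal axis) for all 16360 genes tested; red points are the 1119 genes called higher, blue points the 1120 called lower and grey points those not called. The largest changes lie at low levels, and the genes at 1000 CPM and over lie mostly below 0.

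Mast cell genes stood out among those that rose. Of the called genes at 10 CPM or more in the higher group, only Nr4a1 and Fos rose by a larger fold than the mast cell genes Cma1 and Cpa3. Mast cells are tissue-resident granulocytes that store proteases and histamine and depend on the KIT receptor. Of 16 mast cell genes listed, 10 passed the filter on low counts, 8 rose and none fell, where 6.84% of all genes tested rose and 6.85% fell. Their median log2 fold change was 0.77, against -0.0015 over all genes tested. The carboxypeptidase of mast cell granules, Cpa3, was at 16.8, 16.7 and 17.2 CPM in the BMP2 libraries and at 8.22, 8.56 and 9.64 CPM in the vehicle libraries. All BMP2 libraries stood well above all vehicle libraries, a 1.92-fold difference (log2 fold change 0.94 ± 0.074 SE, adjusted p = 3.7e-22). The chymase gene Cma1 measured 13.3, 13.5 and 13.1 CPM with BMP2 against 7.11, 5.97 and 6.46 CPM with vehicle. Here too no library crossed over, and the difference was 2.04-fold (adjusted p = 3.1e-22). The tryptase gene Tpsb2 was at 9.87, 8.92 and 9.18 CPM against 4.27, 4.99 and 3.74 CPM, again with a wide gap between the groups (2.15-fold, adjusted p = 3.0e-18). Its close paralogue Tpsab1 rose 2.01-fold, and the split of reads between these similar genes is uncertain.

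The remaining called mast cell genes encode the histamine-forming enzyme Hdc, the vesicular amine transporter Slc18a2, the IL-33 receptor Il1rl1 and Kit. Hdc stood at 67.7, 68.0 and 68.6 CPM with BMP2 and at 55.3, 53.1 and 52.9 CPM with vehicle. The BMP2 libraries were all higher and close together (1.27-fold, adjusted p = 2.7e-15). Kit, which oocytes also express, rose from 68.9 ± 1.98 to 80.9 ± 2.24 CPM (SD, n = 3). The genes that did not pass were Ms4a2, which encodes a chain of the high-affinity IgE receptor, at 0.558 ± 0.0075 against 0.277 ± 0.0276 CPM (adjusted p = 0.060), and Gata2 (log2 fold change 0.16, adjusted p = 0.17). None of the 16 listed genes was at 0 in all 6 libraries. Summed, the 16 listed genes took 221 to 228 CPM in BMP2 libraries and 166 to 173 CPM in vehicle libraries. Kit, at 80.9 and 68.9 CPM, is part of this sum, which is therefore not a measure of mast cell RNA alone. In whole-organ RNA more cells of a type and more RNA per cell cannot be told apart, here and for every list below. Il1rl1 was called with all libraries but not without BMP2 replicate 3 (7 mast cell genes then rose) or vehicle replicate 1.

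The window upstream of Cpa3 is shown because it is the most strongly changed mast cell gene with a match near its start. It covers chr3:20242182-20242431 (GRCm38, minus strand, sequence and start from RefSeq), ends 1 base before the annotated start, and has the GATA factor motif AGATAA in capitals, 46 bases upstream.
Cpa3: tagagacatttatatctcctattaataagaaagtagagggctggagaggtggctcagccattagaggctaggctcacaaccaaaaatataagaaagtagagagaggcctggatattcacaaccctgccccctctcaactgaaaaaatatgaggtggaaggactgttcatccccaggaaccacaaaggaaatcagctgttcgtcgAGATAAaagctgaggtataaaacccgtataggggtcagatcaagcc
The motif, searched on both strands, lay in 4 of the 8 windows of called mast cell genes (50.0%). All windows of 250 bases numbered 32851 and held it in 9.99%, those of genes tested in 6.44%. By gene, 3 of the 6 with windows held it (Cpa3, Il1rl1 and Slc18a2), against 11.4% of all genes with windows and 7.77% of those tested. The E-box CATGTG, named for MITF, was in none of the 8 windows and in 12.3% of all windows. Both motifs were chosen after the mast cell values had been seen.

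**Figure D2:**
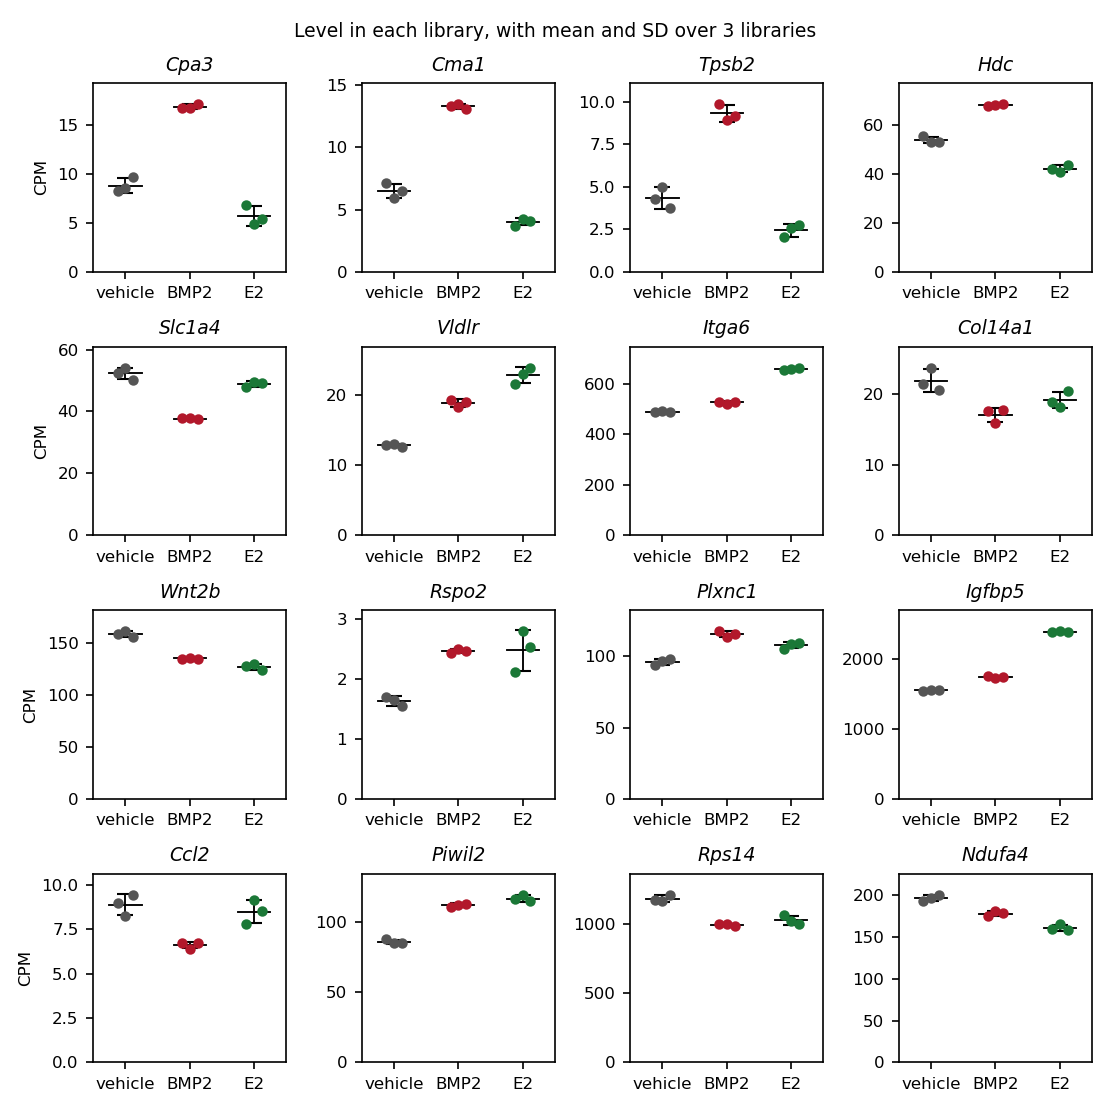
Level in CPM (vertical axis, starting at 0) of 16 genes in each of the 9 libraries by group, vehicle, BMP2 and E2; points are libraries and bars give the mean and SD of 3. Cpa3, Cma1, Tpsb2 and Hdc are highest in the BMP2 libraries, while Slc1a4, Col14a1, Wnt2b, Ccl2 and Ndufa4 are lower in all BMP2 libraries than in any vehicle library.

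Genes of other blood lineages did not move as a block. Among 21 neutrophil genes 5 rose and 6 fell: the primary granule proteins Mpo, Elane and Prtn3 (2.22-fold), the ficolin Fcnb and Ms4a3 were higher, whereas proteins of later granules and the cytosol, such as the cathelicidin Camp, were lower. Camp was at 1.9, 2.62 and 2.59 CPM with BMP2 and at 5.99, 5.61 and 4.2 CPM with vehicle. The groups were clearly apart, with a 2.22-fold lower level (adjusted p = 7.7e-13). The neutrophil list summed to 72.9 to 73.4 CPM against 101 to 104 CPM, so its total was lower with BMP2 although 5 members rose. Without vehicle replicate 3, Fcnb and Ms4a3 were no longer called. DESeq2 called 2 of the 5 higher genes, Mpo and Prtn3, and gave Elane, Fcnb and Ms4a3 no adjusted p.

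Red cell genes leaned upward. Of 17 tested, 6 rose and 1, the embryonic globin Hbb-y, fell, with a median log2 fold change of 0.25. The anion exchanger Slc4a1 measured 8.08, 9.07 and 8.22 CPM against 6.81, 5.48 and 6.21 CPM. Its BMP2 libraries were all higher (1.37-fold, adjusted p = 4.6e-05). The blood group gene Ermap rose 1.74-fold. Adult beta-globin Beta-s did not pass (log2 fold change -0.06, adjusted p = 0.19), and 2 of the 20 red cell genes listed were at 0 in all 6 libraries. The platelet chemokine Ppbp was the member of 7 tested platelet genes that was called, at 0.849, 0.716 and 0.610 CPM against 0.146, 0.0648 and 0.0309 CPM. Its levels were low but did not overlap (adjusted p = 1.6e-07). In contrast none of 20 macrophage genes and none of 7 lymphocyte genes was called by edgeR or by DESeq2, where 3 and 2 had an unadjusted p under 0.05. The macrophage list summed to 226 to 232 CPM with BMP2 and 229 to 235 CPM with vehicle, and the pan-leukocyte gene Ptprc was at 4.65 ± 0.410 and 4.28 ± 0.577 CPM (adjusted p = 0.55).

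Germ cell genes split by function. piRNAs are small RNAs that guide PIWI proteins to transposon transcripts, and their machinery protects the germ line genome. Of 24 tested genes of this machinery 10 rose and none fell, and 22 had a positive log2 fold change (median 0.15; 9 or 10 genes rose when single libraries were left out). Piwil2, a PIWI protein that binds piRNAs, was at 111, 112 and 113 CPM with BMP2 and at 87.5, 84.9 and 84.8 CPM with vehicle. The BMP2 libraries lay within a narrow band well above the vehicle libraries (1.31-fold, log2 fold change 0.38 ± 0.028 SE, adjusted p = 5.0e-25). The RNA helicase Mov10l1 was at 223, 228 and 224 CPM against 196, 196 and 192 CPM. It also showed no overlap (1.16-fold, adjusted p = 2.6e-15). The Tudor protein Tdrd5 rose 1.2-fold, Tex19.1 1.2-fold, the nuage protein Mael 1.13-fold, Asz1 1.11-fold and Ddx4 1.08-fold. Fkbp6 rose 1.07-fold, but not without vehicle replicate 3. Among the called genes of the list Tdrd9 and Tdrd1 had the largest changes, at 1.43-fold and 1.39-fold.

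Upstream windows are shown for the 4 called piRNA genes whose 250 bases before the start held TGATTG, the core of the element known for the oocyte transcription factor LHX8; the match on either strand is in capitals (CAATCA is the reverse complement). They cover chr13:112652311-112652560 (minus), chr1:166238745-166238994 (minus), chr19:56825959-56826208 (plus) and chr12:111971309-111971558 (plus) of GRCm38, with starts from RefSeq.
Ddx4: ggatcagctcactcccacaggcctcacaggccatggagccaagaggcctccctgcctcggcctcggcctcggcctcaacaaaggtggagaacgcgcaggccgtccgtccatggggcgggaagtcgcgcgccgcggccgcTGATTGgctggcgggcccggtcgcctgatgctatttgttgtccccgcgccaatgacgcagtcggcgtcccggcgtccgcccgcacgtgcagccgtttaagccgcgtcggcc
Mael: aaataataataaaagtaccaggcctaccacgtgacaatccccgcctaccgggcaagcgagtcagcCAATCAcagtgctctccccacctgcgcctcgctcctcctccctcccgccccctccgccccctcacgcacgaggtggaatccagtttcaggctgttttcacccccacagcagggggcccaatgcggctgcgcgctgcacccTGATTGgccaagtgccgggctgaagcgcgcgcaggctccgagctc
Tdrd1: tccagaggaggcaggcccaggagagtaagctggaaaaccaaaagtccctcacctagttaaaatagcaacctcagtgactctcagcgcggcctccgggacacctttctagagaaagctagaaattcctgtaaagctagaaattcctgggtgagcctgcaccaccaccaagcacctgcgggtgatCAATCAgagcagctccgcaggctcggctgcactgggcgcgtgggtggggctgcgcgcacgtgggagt
Tdrd9: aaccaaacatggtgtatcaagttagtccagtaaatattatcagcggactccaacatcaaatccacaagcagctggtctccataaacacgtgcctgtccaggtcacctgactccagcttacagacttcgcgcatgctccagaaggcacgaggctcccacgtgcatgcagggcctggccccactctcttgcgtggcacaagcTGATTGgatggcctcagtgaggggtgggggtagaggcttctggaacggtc
RefSeq start windows were found for 9 of the 10 called genes, 12 windows in all, and 5 of the 12 (41.7%) held TGATTG. The share was 12.7% over all 32851 windows and 12.9% over the windows of tested genes. Overlapping windows of Tdrd1 hold the same site, which is therefore counted repeatedly among the 5. By gene, 4 of the 9 (44.4%) held TGATTG, against 14.5% of all genes with windows and 15.4% of those tested. In Ddx4, Mael and Tdrd9 the match is followed by a further G, which makes TGATTGG, the inverted CCAAT box. That longer string was in 25% of the piRNA windows, 7.23% of all windows and 8.99% of those of tested genes. The NOBOX element TAATTG was in none of the 12 windows and in 7.17% of all windows.

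Among genes of meiotic chromosomes more fell than rose. The synaptonemal complex holds paired homologous chromosomes together during prophase, and meiotic cohesins tie sister chromatids along its axes. Of 23 such genes 9 fell and 2 rose (Smc1b and Rad21l), with a median log2 fold change of -0.095. The axis gene Sycp2 was at 270, 261 and 267 CPM with BMP2 and at 293, 279 and 291 CPM with vehicle. All BMP2 values were lower, by 1.08-fold (adjusted p = 6.9e-06). Meiob, a single-strand DNA-binding protein of recombination sites, fell 1.12-fold (adjusted p = 4.9e-04). Rad21l was not called without BMP2 replicate 2.

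Among 26 genes of meiotic recombination none rose and 7 fell (4 without BMP2 replicate 2). The histone methyltransferase Prdm9, which marks the sites of recombination, measured 54.7, 51.5 and 54.4 CPM against 60.2, 62.8 and 63.9 CPM. Its BMP2 libraries were all lower (1.16-fold, adjusted p = 4.3e-07). Rad51ap2, a gene of meiotic recombination, fell 1.16-fold from 48.9 ± 0.372 to 42.1 ± 1.05 CPM (SD, n = 3), and Ccdc36 (also known as Iho1), needed for the breaks that start recombination, fell 1.18-fold. Gm1564, the gene now called Meioc, which keeps germ cells in meiotic prophase, was at 206, 212 and 211 CPM against 234, 231 and 245 CPM. It was lower in every BMP2 library (1.13-fold, adjusted p = 2.1e-11).

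Several other RNA-binding genes of germ cells were called. Of 24 tested, 5 rose and Gm1564 fell. Ybx2, which stores maternal mRNA in oocytes, was at 72.0, 76.4 and 71.2 CPM with BMP2 against 61.5, 61.9 and 59.7 CPM with vehicle. The groups did not overlap (1.2-fold, adjusted p = 4.9e-11). Cpeb1, which controls the poly(A) tails of stored mRNA, rose 1.13-fold (adjusted p = 3.0e-07). The count of higher genes was 3 without BMP2 replicate 1 or vehicle replicate 1, and that of lower genes 2 without vehicle replicate 1 or 2. Of 32 genes of oocyte growth and maternal effect 16 passed the filter, 5 were at 0 in all 6 libraries, 5 rose and none fell (3 rose without BMP2 replicate 2 or 3 or vehicle replicate 2, and 1 fell without BMP2 replicate 3). The inflammasome-family gene Nlrp4f was at 2.90, 2.80 and 2.88 CPM against 1.64, 1.65 and 2.19 CPM. That was 1.56-fold higher without overlap (adjusted p = 0.0012).

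**Figure D3:**
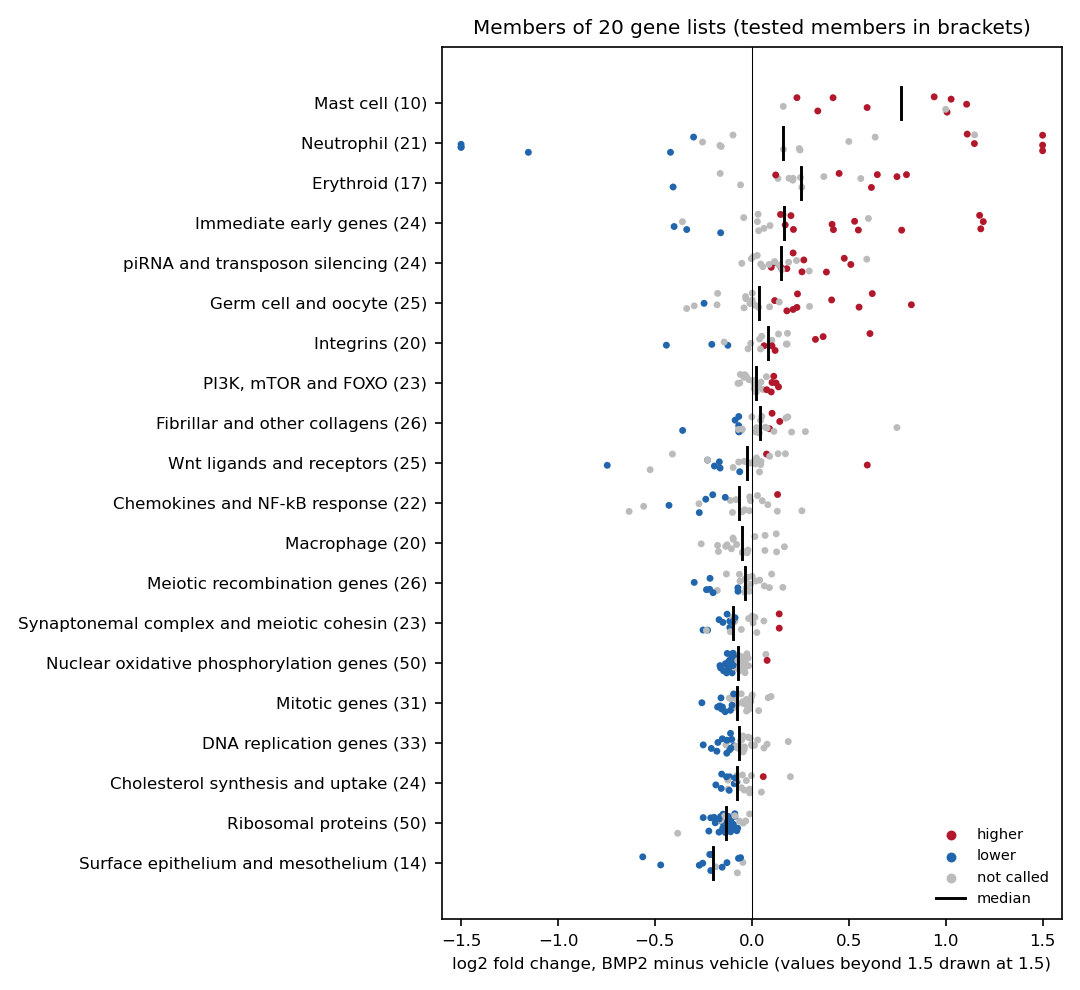
Log2 fold change of BMP2 over vehicle (horizontal axis) for the tested members of 20 gene lists (rows); each dot is a gene, the black bar is the median of the list, and values beyond 1.5 in either direction are drawn at 1.5. The mast cell and piRNA rows lie to the right of 0, and the ribosomal protein row lies wholly to the left.

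Immediate early genes, which are transcribed within minutes of many stimuli without new protein synthesis, were the list of signalling genes with the most calls. Of 24 tested, 12 rose and 3 fell, with a median log2 fold change of 0.17 (10 to 12 rose when single libraries were left out, and 1 fell without vehicle replicate 1). Junb, an AP-1 subunit, was at 14.8, 15.2 and 17.0 CPM with BMP2 and at 11.4, 10.7 and 10.04 CPM with vehicle. The BMP2 libraries were all higher (1.46-fold, adjusted p = 3.1e-10). The zinc finger gene Egr2 was at 4.83, 3.85 and 4.27 CPM against 2.66, 2.79 and 2.13 CPM. It rose 1.71-fold without overlap (adjusted p = 2.9e-06). Jun rose 1.13-fold, Klf4 1.34-fold, Ier2 1.15-fold and the antiproliferative gene Btg2 1.11-fold. Nr4a2 and Atf3 were called at adjusted p of 0.014 and 0.017; leaving out BMP2 replicate 2 or vehicle replicate 1 ended both calls, leaving out BMP2 replicate 1 that of Atf3, and leaving out vehicle replicate 3 that of Nr4a2.

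A list of 16 genes known to respond to tissue handling and ischaemia, which shares members with the immediate early list, had 6 higher and none lower (2 lower without vehicle replicate 3). Whether handling plays a part was not tested. Myc, whose product drives growth and proliferation, went the other way: it was at 19.8, 19.6 and 19.8 CPM with BMP2 and at 25.9, 25.2 and 27.0 CPM with vehicle. The fall was 1.32-fold, with a wide gap between the groups (log2 fold change -0.40 ± 0.052 SE, adjusted p = 2.1e-10). Ctgf and Cyr61, matricellular genes induced by YAP, were the other lower members. Leaving out vehicle replicate 1 ended both of their calls, and leaving out BMP2 replicate 1 or 3 or vehicle replicate 2 or 3 that of Cyr61. Ajuba, a LIM protein counted among the YAP targets, rose 1.13-fold (adjusted p = 3.0e-06).

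The window upstream of Fos is shown because it holds a cyclic AMP response element core, TGACGT, in capitals at 66 bases before the start, and it also holds GGCGCC, the core of a GC-rich SMAD1/5 element. It covers chr12:85473640-85473889 (GRCm38, plus strand, RefSeq start).
Fos: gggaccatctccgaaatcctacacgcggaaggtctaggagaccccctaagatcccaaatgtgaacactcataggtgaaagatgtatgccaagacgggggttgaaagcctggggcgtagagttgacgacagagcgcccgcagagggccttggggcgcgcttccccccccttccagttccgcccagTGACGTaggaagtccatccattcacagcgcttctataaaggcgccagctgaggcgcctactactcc
On either strand TGACGT was in 6 of the 14 windows of called immediate early genes (42.9%; Atf3, Btg2, Egr2 and Fos), against 6.47% of all windows and 9.01% of those of tested genes. GGCGCC was in 5 of the 14 (35.7%), against 9.59% and 15.6%. The 14 windows belong to 10 of the 15 genes called in either direction, some with several starts. By gene, 4 of the 10 (40.0%) held TGACGT, against 7.29% of all genes with windows and 10.6% of those tested. For GGCGCC it was 5 of the 10 (50.0%), against 10.8% and 18.4%. The windows of Nr4a1 and Fosb held no TGACGT. Over all called genes GGCGCC was in 17.2% of the windows of higher genes and 15.7% of those of lower genes. The AP-1 string TGANTCA was in none of the 14 and in 6.75% of all windows.

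Other genes of the BMP pathway itself were described by 3 lists. Of 19 genes for antagonists and feedback regulators 2 rose and none fell, at 1.1-fold for the antagonist Nbl1 and 1.04-fold for Twsg1, which binds BMPs outside the cell. None was called without BMP2 replicate 1 or 2 or vehicle replicate 1 or 2, and 1 without BMP2 replicate 3. Of 18 known SMAD1/5 target genes 2 rose, and Gata3, a transcription factor gene, fell. Gata3 was at 10.7, 11.5 and 11.9 CPM with BMP2 and at 15.3, 14.8 and 15.1 CPM with vehicle. Every BMP2 library was lower (1.33-fold, adjusted p = 1.1e-06). None of 17 genes that BMP2 is known to induce in skeletal mesenchyme was called by edgeR or by DESeq2, although 4 had an unadjusted p under 0.05. The listed gene of highest level, the transcription factor gene Runx1, was at 76.2 CPM against 72.9 CPM (adjusted p = 0.19). Leaving out BMP2 replicate 1 or vehicle replicate 1 or 2 brought 1 of them to a lower call.

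The TGF-beta and activin branch, which signals through SMAD2 and SMAD3, had 5 higher and 2 lower genes of 23. Ltbp1, which tethers latent TGF-beta to the matrix, was at 174, 177 and 177 CPM with BMP2 and at 147, 141 and 141 CPM with vehicle. It rose 1.23-fold with no overlap (log2 fold change 0.30, adjusted p = 8.4e-23). The signal transducer Smad3 rose 1.13-fold (adjusted p = 5.5e-09), and the activin beta-B subunit Inhbb fell 1.13-fold (adjusted p = 0.0044). Of the other 4 called genes, Tgfb3, Tgfbr1 and Smad2 each lost the call in several leave-one-out fits, so that 2 of the 5 higher genes rose without BMP2 replicate 3 or vehicle replicate 1 or 2, and 3 without BMP2 replicate 1 or 2. Inhba was not called without BMP2 replicate 2 or 3 or vehicle replicate 2 or 3.

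More Wnt ligand and receptor genes were called lower than higher. Of 25 tested, 6 fell and 2 rose (4 to 7 fell when single libraries were left out, and 1 rose without BMP2 replicate 1 or 3 or vehicle replicate 1 or 3). Wnt2b, a ligand of the canonical pathway, was at 135, 136 and 135 CPM with BMP2 and at 159, 161 and 156 CPM with vehicle. The BMP2 libraries were nearly identical and all lower (1.17-fold, adjusted p = 3.0e-14). Wnt5a, a mostly non-canonical ligand, fell 1.14-fold (adjusted p = 3.9e-05), and Rspo1, the R-spondin that drives ovarian fate, fell 1.12-fold (adjusted p = 5.4e-05). Its relative Rspo2, which oocytes make, was at 2.43, 2.51 and 2.47 CPM against 1.70, 1.65 and 1.55 CPM. It rose 1.51-fold, in every library (adjusted p = 0.0063). Wnt4 rose by 1.05-fold, a call kept by the fit without vehicle replicate 2 but by no other leave-one-out fit. Of 23 Wnt targets and antagonists 4 fell and 2 rose (none rose without BMP2 replicate 1 or vehicle replicate 2, and 1 without BMP2 replicate 3 or vehicle replicate 1), and the cell cycle gene Ccnd1 fell 1.25-fold (adjusted p = 2.7e-08).

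Genes of other developmental pathways were called in both directions. Of the Notch genes 10% rose and 5% fell, and of the retinoic acid genes 6.25% and 12.5%. Those shares are near the 6.84% and 6.85% of all genes tested. The Notch ligand Jag2 rose 1.21-fold (adjusted p = 1.0e-05), from 23.2 ± 1.23 to 28.0 ± 0.124 CPM (SD, n = 3), among 20 Notch genes; Notch2 also rose and Jag1 fell, but neither call held without vehicle replicate 3, and that of Notch2 was also lost without BMP2 replicate 2 or 3. In the retinoic acid pathway, which starts meiosis in the fetal ovary, 1 of 16 genes rose and 2 fell. Dhrs3, which turns retinaldehyde back into retinol, rose 1.1-fold (adjusted p = 0.0031), and the vitamin A transporter Stra6 fell 1.15-fold (adjusted p = 4.3e-04). The synthesis enzyme Aldh1a2 fell as well, but not without BMP2 replicate 1 or 3 or vehicle replicate 1 or 2.

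PI3K pathway genes, which hold or release primordial follicles, had 6 higher and none lower of 23 (3 without BMP2 replicate 3). The kinase gene Pik3ca was at 174, 171 and 173 CPM with BMP2 and at 163, 159 and 161 CPM with vehicle. Its BMP2 libraries were all higher, by 1.07-fold (adjusted p = 2.8e-04). Of 19 genes of the insulin-like growth factor axis 4 rose and 4 fell. Igfbp5 was at 1750, 1732 and 1743 CPM against 1535, 1555 and 1557 CPM. That was 1.12-fold higher with no overlap (adjusted p = 5.1e-19). The other binding proteins of the list that were called all fell: Igfbp2 by 1.22-fold, Igfbp4 by 1.12-fold and Igfbp3 by 1.11-fold. The receptors Igf1r and Igf2r each rose 1.07-fold.

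Guidance cues, which steer migrating cells and axons, leaned upward. Of 35 semaphorin, plexin, netrin and slit genes 10 rose and 2 fell (7 to 11 and 1 to 3 when single libraries were left out, with 1 lower without BMP2 replicate 1). The semaphorin receptor Plxnc1 was at 118, 113 and 116 CPM with BMP2 and at 93.9, 97.0 and 98.1 CPM with vehicle. The groups were clearly apart (1.2-fold, adjusted p = 7.0e-15). Sema3d rose 1.24-fold, Plxnd1 1.15-fold, Sema6a 1.16-fold and Slit2 1.07-fold, whereas Sema3a fell 1.13-fold (adjusted p = 8.4e-08).

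Inflammatory genes were called in both directions. Of 22 chemokine and NF-kB response genes 5 fell and 1 rose (3 fell without BMP2 replicate 1 or vehicle replicate 2, and none rose without BMP2 replicate 2 or 3). Ccl2, which attracts monocytes, was at 6.74, 6.41 and 6.74 CPM with BMP2 and at 9.01, 8.27 and 9.46 CPM with vehicle. It was lower in all BMP2 libraries (1.34-fold, adjusted p = 6.9e-05). The adhesion molecule Icam1 fell 1.18-fold. The prostaglandin synthase Ptgs2 was at 0.439, 0.626 and 0.697 CPM against 1.17, 1.1 and 1.21 CPM. That was 1.97-fold lower without overlap (adjusted p = 0.0041), a call lost without BMP2 replicate 1. Among 24 interferon response genes 5 rose and 1 fell (3 rose without BMP2 replicate 1 or 2 or vehicle replicate 1 or 2), led by the antiviral gene Rsad2, which rose 1.17-fold (adjusted p = 9.5e-05). Among 15 glucocorticoid-induced genes the mineralocorticoid receptor Nr3c2 rose 1.35-fold and the metallothionein Mt1 fell 1.21-fold, 6.67% each. Over all genes tested 6.84% rose and 6.85% fell. Without BMP2 replicate 1 or vehicle replicate 3, 2 genes of the list rose.

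Matrix and adhesion genes changed in both directions by small amounts. Of 20 integrins, the receptors that bind cells to matrix, 6 rose and 3 fell (4 to 6 rose and 3 fell when single libraries were left out). The laminin receptor chain Itga6 was at 530, 521 and 528 CPM with BMP2 and at 490, 491 and 488 CPM with vehicle. It rose 1.07-fold, with every BMP2 library higher (adjusted p = 1.9e-06). The chain Itga10, a collagen receptor, rose 1.53-fold at a low level (adjusted p = 0.0012). Itgb8, which activates latent TGF-beta, was at 9.58, 9.36 and 8.83 CPM against 12.8, 10.7 and 14.2 CPM. It was lower in all BMP2 libraries, though the vehicle libraries were widely spread (1.36-fold, adjusted p = 4.6e-06). Itga8 fell 1.15-fold.

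In the basement membrane list of 25 genes 4 rose and 3 fell (2 rose without BMP2 replicate 2 and 7 without vehicle replicate 2). These were 16% and 12%, near the 14.15% and 13.81% of all tested genes from 100 to 1000 CPM. The collagen IV chain Col4a2 rose 1.1-fold from 236 ± 4.18 to 260 ± 6.33 CPM (SD, n = 3), the proteoglycan Agrn rose 1.08-fold, and the laminin chain Lama5 fell 1.13-fold. Of 26 fibrillar and other collagens 3 rose and 6 fell (3 fell without vehicle replicate 2). Col14a1, a collagen that associates with fibrils, was at 17.6, 15.9 and 17.7 CPM against 21.4, 23.7 and 20.6 CPM. The BMP2 libraries were all lower (1.28-fold, adjusted p = 5.0e-07). The fibrillar collagen Col3a1 was at 2049 ± 21.4 CPM against 1923 ± 15.1 CPM (SD, n = 3), a 1.06-fold rise (adjusted p = 5.6e-07). Loxl2, which crosslinks collagen, fell 1.15-fold (adjusted p = 7.5e-12).

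Proteoglycan and matricellular genes counted 7 higher and 5 lower of 38 (3 lower without BMP2 replicate 3 or vehicle replicate 1 or 2). Thbs2, a thrombospondin that modulates the contact of cells with matrix, was at 354, 347 and 354 CPM with BMP2 and at 297, 295 and 291 CPM with vehicle. It stood clearly higher in all BMP2 libraries (1.2-fold, adjusted p = 1.3e-22). The microfibril gene Fbn2 rose 1.14-fold, Thbs1 1.17-fold and Postn 1.17-fold, and the large proteoglycan Vcan fell 1.14-fold. Of 35 proteases and inhibitors 7 rose and 7 fell. The gelatinase Mmp2 and its activator Mmp14 rose 1.08-fold and 1.1-fold, while the inhibitor Timp1 fell 1.16-fold and the plasminogen activator Plat 1.09-fold.

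**Figure D4:**
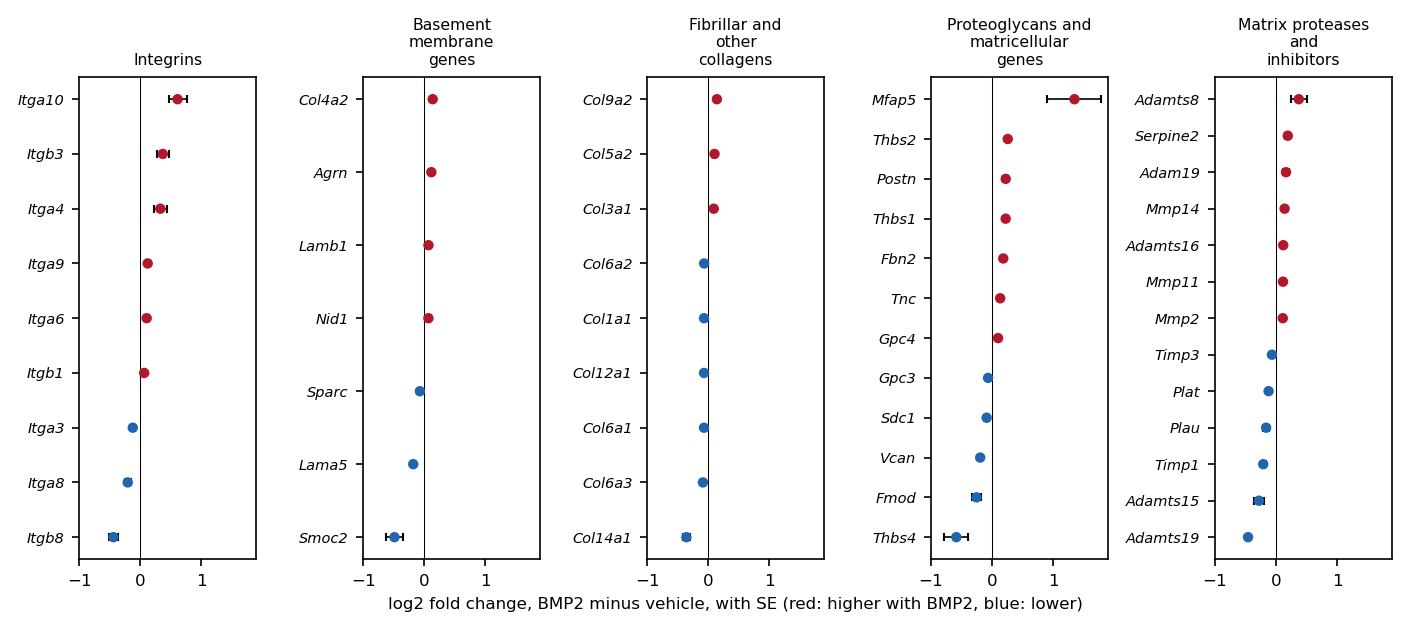
Log2 fold change of BMP2 over vehicle with its standard error (horizontal axis) for the called members of 5 matrix and adhesion lists, bar 1 gene that is not reported, (5 panels, a gene per row); red points rose and blue points fell. Each list holds members on both sides of 0.

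Cell junction genes were called in both directions. Of 24 cadherins and catenins 4 rose and 3 fell (2 rose without BMP2 replicate 2 or vehicle replicate 1 or 2). These were 16.7% and 12.5% of the list, against 6.84% and 6.85% of all genes tested. Among all tested genes from 100 to 1000 CPM the shares were 14.15% and 13.81%, close to those of the list. Beta-catenin (Ctnnb1) was at 1136 CPM against 1060 CPM (1.07-fold, adjusted p = 3.3e-07), and the mesenchymal cadherin Cdh11 was down 1.1-fold. The connexin Gja1, which couples granulosa cells, rose 1.07-fold (adjusted p = 4.3e-05), as the 1 called member of 11 gap junction genes tested.

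Marker genes of the ovary's somatic cells moved in several directions. All 14 markers of the surface epithelium and mesothelium had a negative log2 fold change and 11 fell (8 to 11 when single libraries were left out), with a median of -0.20. Krt19, a keratin of the surface epithelium, was at 146, 155 and 145 CPM with BMP2 and at 170, 179 and 167 CPM with vehicle. It was lower in all BMP2 libraries (1.16-fold, adjusted p = 1.0e-11). The mesothelial antigen Msln fell 1.48-fold, the leucine-rich repeat gene Lrrn4 1.21-fold and the uroplakin Upk3b 1.11-fold. The list summed to 1808 to 1822 CPM against 1933 to 1974 CPM.

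Of 23 pregranulosa genes 5 rose and 6 fell (2 or 3 rose without BMP2 replicate 2 or 3 or vehicle replicate 1 or 2). Foxl2, Gata4, Kitl, Cdkn1b and Wnt4 were the higher members. Lhx9, a gonadal homeobox gene, was at 164, 160 and 162 CPM against 184, 178 and 187 CPM. It fell 1.13-fold without overlap (adjusted p = 7.1e-10). Of 16 steroidogenic genes, a separate list, 1 rose and 1 fell (none fell without BMP2 replicate 1 or 3 or vehicle replicate 2 or 3). The steroid dehydrogenase Hsd3b1 rose 1.21-fold, from 101 ± 1.49 to 122 ± 0.765 CPM (SD, n = 3). Contractile genes split. The myosin light chain Myl9 was at 369, 368 and 363 CPM with BMP2 and at 312, 316 and 298 CPM with vehicle. It rose 1.19-fold, well clear of vehicle (adjusted p = 2.1e-21). Smooth muscle actin (Acta2) fell 1.16-fold, Tagln 1.17-fold and Des 1.30-fold. Of 20 neuronal genes listed, 1 was at 0 in all 6 libraries. Of the 16 tested none rose, and the neurofilament Nefm fell 1.94-fold (adjusted p = 8.9e-06); leaving out BMP2 replicate 1 or vehicle replicate 1 or 2 raised the count of lower neuronal genes to 2. Of 16 mesonephros genes 3 fell and none rose.

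Ribosomal protein genes fell together. These proteins form the ribosome and are among the most abundant mRNAs of a growing cell. Of 50 listed, 41 fell and none rose, all 50 had a negative log2 fold change (median -0.13), and leaving out single libraries gave 41 to 45. Rps14 was at 998, 997 and 986 CPM with BMP2 and at 1172, 1166 and 1209 CPM with vehicle. The groups were far apart relative to their spread (1.19-fold, adjusted p = 1.5e-26). Rpl32 fell 1.16-fold, Rpl27 1.17-fold and Rplp1 1.12-fold. Summed, the 50 genes took 4.09% to 4.11% of counts in BMP2 libraries and 4.41% to 4.52% in vehicle libraries. They took 4.13% to 4.18% in the E2 libraries. Many of these genes have processed pseudogenes. The files set reads without a unique alignment aside in a row of their own, counted to no gene. That row held 23.95% to 24.39% of all counts in the BMP2 and vehicle libraries. How many of these reads came from ribosomal protein genes was not tested.

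Short transcripts as a class were also called lower more often. Among 870 tested genes whose longest annotated transcript is under 1000 bases 1.15% were higher and 14.2% lower, against 9.82% and 5.35% of the 4971 genes between 4000 and 8000 bases. Without the ribosomal protein genes, 850 short genes remained, of which 108 were lower and 10 higher, and of the 60 of these at 100 CPM or more, 39 were lower and 1 was higher. With an offset for GC content and length in the fit, the median of the ribosomal list was -0.11 and 41 of its genes still fell. The part of transcript length in these counts beyond that offset was not tested. Of the 64 genes at 1000 CPM or more, 43 fell and 8 rose. The 20 ribosomal protein genes among them all fell, and of the other 44 genes 23 fell and 8 rose.

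**Figure D5:**
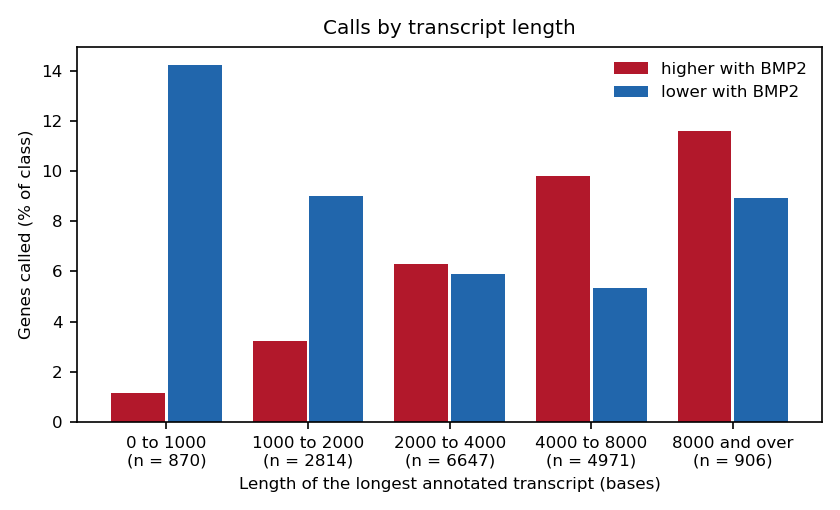
Percentage of tested genes called higher (red) and lower (blue) with BMP2 (vertical axis, from 0) by length of the longest annotated transcript in 5 classes (horizontal axis; 870, 2814, 6647, 4971 and 906 genes). The share of lower genes is largest under 1000 bases and the share of higher genes grows with length.

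Other housekeeping genes were called lower more often than higher, and most of them did not pass the test. Of 50 nuclear genes of oxidative phosphorylation 22 fell and 1, the succinate dehydrogenase subunit Sdha, rose, with a median of -0.072 (16 to 25 fell when single libraries were left out). Ndufa4, a small respiratory chain subunit, was at 175, 181 and 178 CPM against 194, 197 and 200 CPM. It was lower in all BMP2 libraries (1.11-fold, adjusted p = 8.4e-08). In 4 lists added after the ribosomal result had been seen, 16 of 30 translation factors fell and 1 (Eif4a2) rose (2 without vehicle replicate 3), 10 of 30 proteasome genes fell and 1 rose (none rose in any leave-one-out fit), 5 of 36 mitochondrial ribosomal genes fell (3 without BMP2 replicate 1 or 2 or vehicle replicate 2), and 5 of 30 ribosome biogenesis genes fell and 1 rose (3 fell without vehicle replicate 2, and none rose without BMP2 replicate 2 or 3 or any single vehicle replicate). Eef1g, a subunit of the elongation factor, fell 1.1-fold and the proteasome subunit Psma7 1.12-fold.

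Among 24 genes of cholesterol synthesis and uptake 10 fell and 1 rose (6 fell without BMP2 replicate 3, and none rose without BMP2 replicate 1 or 3 or vehicle replicate 2). The reductase Dhcr7, which makes cholesterol in the last step, fell 1.12-fold (adjusted p = 6.8e-04). Of 27 glycolysis genes 5 fell and none rose (2 fell without BMP2 replicate 1, and 3 without BMP2 replicate 3 or vehicle replicate 1 or 2). The lactate dehydrogenase subunit Ldhb was at 370, 384 and 374 CPM with BMP2 and at 438, 432 and 419 CPM with vehicle. It stood clearly lower (1.14-fold, adjusted p = 7.7e-16).

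Stress genes were mixed. Of 21 heat shock genes 6 rose and 3 fell (3 rose without BMP2 replicate 3, and 1 fell without BMP2 replicate 1 or 3 or vehicle replicate 1). The chaperone Hsp90aa1 rose 1.09-fold, from 1989 ± 38.9 to 2174 ± 25.4 CPM (SD, n = 3, adjusted p = 2.6e-12), and Hsph1 rose 1.13-fold. Of 29 genes of the unfolded protein and integrated stress responses 6 rose and 3 fell (3 rose without BMP2 replicate 1), and of 24 genes of the oxidative and metal response 8 fell and none rose. Gpx4, which clears lipid peroxides, fell 1.1-fold, from 177 ± 3.08 to 161 ± 1.36 CPM (SD, n = 3).

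DNA replication and mitotic genes that passed the test were lower, by small amounts, and most did not pass. Of 33 DNA replication genes 12 fell and none rose (8 to 11 when single libraries were left out), and of 31 mitotic genes 10 fell and none rose (7 to 10, with 2 higher without vehicle replicate 3). Pole, the leading-strand DNA polymerase, was at 90.7, 90.7 and 90.3 CPM with BMP2 and at 105, 102 and 100 CPM with vehicle. Its BMP2 values were lower in every library (1.13-fold, adjusted p = 3.3e-07). The sliding clamp Pcna fell 1.09-fold, the proliferation marker Mki67 1.08-fold and the ubiquitin-conjugating enzyme Ube2c 1.2-fold. Of 27 CDK inhibitors and p53 targets 3 rose and 2 fell (1 rose without vehicle replicate 1 or 2). The inhibitor Cdkn1a fell 1.22-fold, from 28.2 ± 1.37 to 23.1 ± 0.414 CPM (SD, n = 3), and Trp53 fell 1.11-fold. The inhibitor Cdkn1b was among those that rose, by 1.055-fold, a call lost without BMP2 replicate 3 or vehicle replicate 1 or 2. The survival gene Mcl1 rose 1.07-fold among 21 BCL2 family genes, of which 3 rose and none fell (1 rose without BMP2 replicate 2).

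Among chromatin genes the histone methyltransferase Mll3 rose 1.11-fold (adjusted p = 6.1e-11) and Asxl1 1.1-fold. Of 33 Polycomb and trithorax genes 5 rose and 1 fell (none fell without any single BMP2 replicate or vehicle replicate 1). These were 15.15% and 3.03%, against 6.84% and 6.85% of all genes tested and 14.15% and 13.81% of those from 100 to 1000 CPM. Of 33 imprinted genes 3 (Igf2r, Ppp1r9a and H19) rose and 5 fell (5 rose without vehicle replicate 3). That is 9.09% and 15.15% of the list, near the shares of all tested genes from 100 to 1000 CPM. The paternally expressed genes Mest, Peg3 and Dlk1 fell 1.07-fold, 1.05-fold and 1.1-fold. The noncoding RNA Rian, made from the maternal allele, fell 1.09-fold. Amph, which bends membranes during vesicle recycling, was at 34.7, 35.1 and 35.1 CPM against 27.4, 28.6 and 25.3 CPM. It rose 1.29-fold with no overlap (adjusted p = 1.2e-10), among 28 presynaptic genes of which 4 rose and 1 fell (2 rose without BMP2 replicate 1 or vehicle replicate 2, and 2 fell without vehicle replicate 3).

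Outside the lists, a long noncoding transcript had the largest fall at 10 CPM or more. AI506816, a processed transcript at chr5:23698296-23712667 (GRCm38, minus strand), was at 7.23, 7.52 and 7.5 CPM with BMP2 and at 17.1, 16.7 and 15.5 CPM with vehicle. The groups were far apart, with a 2.21-fold lower level (log2 fold change -1.15 ± 0.072 SE, adjusted p = 1.0e-29). A small RNA gene, Mir3096, lies within it. Among the higher transcripts of this kind E330020D12Rik rose 1.25-fold, from 101 to 126 CPM (adjusted p = 1.0e-20).

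The amino acid transporter Slc1a4, which carries serine and alanine, fell by the largest fold among protein-coding genes at this level that no list holds and that fell without overlap. It was at 37.9, 37.8 and 37.5 CPM with BMP2 and at 52.3, 54.2 and 50.3 CPM with vehicle. The BMP2 libraries were almost equal and all lower (1.39-fold, log2 fold change -0.47 ± 0.039 SE, adjusted p = 6.8e-21). The calcium release channel Ryr3 fell 1.39-fold, the calcium-binding S100a6 1.36-fold, the troponin Tnni1 1.35-fold and Vat1l 1.30-fold. At lower levels the peptide transporter Slc15a2 fell 1.94-fold, from 5.02 ± 0.477 to 2.59 ± 0.327 CPM (SD, n = 3, adjusted p = 2.9e-10).

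Among genes that rose, the lipoprotein receptor Vldlr, which takes up lipid and binds reelin, was at 19.3, 18.3 and 18.9 CPM with BMP2 and at 12.8, 13.0 and 12.6 CPM with vehicle. The groups were well separated (1.47-fold, adjusted p = 3.5e-13). The membrane skeleton gene Add2 was at 14.1, 14.4 and 15.2 CPM against 9.27, 9.43 and 8.81 CPM. It rose 1.59-fold with no overlap (adjusted p = 5.2e-14). The chitinase Chit1, a product of macrophages, rose 1.53-fold, Pramef12 1.48-fold, the glucuronyltransferase B3gat1 1.45-fold, Ndrg4 1.4-fold, Tmcc3 1.36-fold and the neural zinc finger gene Myt1l 1.35-fold. The aldo-keto reductase Akr1c13 rose 2.12-fold, from 2.67 ± 0.574 to 5.69 ± 0.625 CPM (SD, n = 3, adjusted p = 6.3e-13). Pramef12 and Akr1c13 belong to families of similar genes, so the share of their reads is uncertain.

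The E2 libraries, cultured alike, give a second reference for these genes. BMP2 and E2 were compared directly in the same fit. Of the 259 genes named by the rules set for the lists and for the largest changes, 256 were called between BMP2 and vehicle. Of these, 155 were also called between BMP2 and E2 and 101 were not. The share of all tested genes called between BMP2 and E2 was not counted. The named genes were also chosen for their change in the same BMP2 libraries, so these counts are no result about them. Cpa3 was at 5.72 CPM with E2, below vehicle, and differed from BMP2 at an adjusted p of 9.9e-39. Cma1 (3.998 CPM) and Tpsb2 (2.43 CPM) were likewise lowest in E2 ovaries, as were Hdc (42.0 CPM) and Junb (7.69 CPM). Tpsab1 was not, with a mean of 1.905 CPM with E2 and 1.8 CPM with vehicle. No test of E2 against vehicle is given here. AI506816 was at 16.8 CPM with E2, close to its vehicle level, and differed from BMP2 (adjusted p = 3.1e-32). Slc1a4 was at 48.9 CPM with E2 and also differed (adjusted p = 2.2e-15).

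Other genes were not separated from E2. Piwil2 was at 117 CPM with E2 against 112 CPM with BMP2 (adjusted p = 0.090), and Mov10l1 (adjusted p = 0.13), Mael (0.37), Ybx2 (0.94) and Add2 (0.70) did not pass either, which does not show that the treatments act alike on them. Rpl32 was at 803 CPM with E2 and 784 CPM with BMP2 (adjusted p = 0.12). The means of Ryr3 lay on opposite sides of vehicle under the treatments, at 27.1 CPM with E2, 19 CPM with vehicle and 13.8 CPM with BMP2. Ltbp1 was far higher with E2 (347 CPM) than with BMP2 (176 CPM, adjusted p = 6.2e-83).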

How the data were processed

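Processed files held raw read counts per gene symbol, which the authors deposited as one file per library; per the submitters' processing notes TopHat2, HTSeq and DESeq2 were used with mm10, with neither gene annotation nor strand setting given in the sources used here. Per the labels' protocols, RNA of a RIN over 9 was used with the TruSeq RNA v2 kit, an unstranded preparation. Groups were read from title prefixes. Rows that name no gene (38.24% to 39.05% of reads) were left out.

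Of 23420 genes, 16360 passed filterByExpr (edgeR 4.0.16, minimum count 10, total 15; R 4.3.3). All 9 libraries were fitted together with TMM scaling and a robust quasi-likelihood model (6 residual degrees of freedom), and BMP2 was tested against vehicle; the biological coefficient of variation was 1.87%. The script was tested on simulated counts. Same-numbered libraries of the groups were not taken to pair. Errors cover the spread between libraries only. Positions and lengths are from GENCODE vM21 (GRCm38). DESeq2 1.42.0, other scalings and filters, a GC and length offset, a test against 1.2-fold, a threshold of 0.01 and leaving out libraries were tried as alternatives.

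Members of lists and the lists were chosen with earlier results of these data known: 71 lists, plus 4 added later. Of their 1819 entries 1801 matched, 18 of these by another symbol (1693 genes, 1588 tested). The rest had no match or repeated another entry. Genes were named by a rule: among called, non-overlapping genes not described before, the 12 highest and 12 lowest at 10 CPM or more, the 6 highest and 6 lowest from 1 to 10 CPM, the 3 highest and 3 lowest predicted or noncoding genes at 10 CPM or more, up to 4 called members of smallest p in each list, and the member of highest level in a list with none; further members named beside them were chosen after their values were seen. Some genes the rule selects are not reported here.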

Additional observations from a re-analysis of the deposited data

How the results depend on the processing

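DESeq2 called 722 higher and 687 lower genes, a threshold of 0.01 on the adjusted p left 662 and 656, and the test against 1.2-fold left 43 and 27, against 1119 and 1120. Leaving out single libraries gave 804 to 1089 higher and 824 to 1052 lower genes, from fewer samples. The GC and length offset gave 1160 and 1296, a minimum of 1 CPM 1150 and 1112, median-ratio scaling 1138 and 1101, no filter 1109 and 1051, and the fit of only BMP2 and vehicle libraries 1080 and 1066. With a replicate block the counts were 1252 and 1260; deviations of same-numbered libraries correlated at 0.00895, 0.0271 and 0.0202, and each BMP2 library correlated best with its own number, which is a hint from the data and not a pairing in the design. Among the called genes named from the lists, none reversed direction under these alternatives. Of 500 called list genes, 499 kept the call under the block, 496 under median-ratio scaling, 397 to 444 without single libraries, 367 at 0.01 and 46 against 1.2-fold, while DESeq2 kept 391 of the 492 to which it gave an adjusted p. Of the named genes, 155 differed from E2 in the main analysis, 138 with DESeq2, 139 at 0.01, 157 with the block and 141 to 148 without single libraries, alternatives chosen after seeing the data. With 3 libraries a group and this depth, genes under 1 CPM were called only when they changed by more than 1.5-fold.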

Other observations

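Of 22 endothelial genes 3 rose and 1 fell (1 rose without vehicle replicate 1, and none fell without BMP2 replicate 2 or 3 or vehicle replicate 3). Their shares were 13.6% and 4.55%, against 6.84% and 6.85% of all genes tested. The endothelial list summed to 293 to 297 CPM with BMP2 and 285 to 296 CPM with vehicle. Of 19 stromal genes Maf rose and 5 fell (2 fell without BMP2 replicate 1 and 3 without BMP2 replicate 3). Of 14 Hedgehog genes none rose and 2 fell (1 fell without any single BMP2 replicate, and none without vehicle replicate 1). The basal keratins Krt17 and Krt14 fell 1.41-fold and 1.25-fold among the genes of stratified epithelium, of which 25 were listed, 2 were at 0 in all 6 libraries and 13 were tested, with 3 higher and 3 lower. Of 17 genes of DNA methylation the dioxygenase Tet3, which oxidises 5-methylcytosine, rose 1.09-fold, from 99.8 ± 2.70 to 109 ± 3.79 CPM (SD, n = 3). In the junction list the tight junction gene Cgn rose 1.1-fold and the desmosome gene Dsp fell 1.25-fold, from 20.7 ± 0.559 to 16.5 ± 1.23 CPM (SD, n = 3). The nuclear-retained RNAs Malat1 and Neat1 were not called (adjusted p = 1.0 and 0.73), with Neat1 at 35.8 ± 1.34 CPM with BMP2 and 35.1 ± 1.62 CPM with vehicle.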
